A study of Homo sapiens with 59 samples.

Results

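The response of macrophage-like THP-1 cells to 1.5 h of rosiglitazone (RSG) was examined by setting the 5 arrays of cells treated with RSG against the 6 arrays of cells that had received the vehicle DMSO for as long. These 11 arrays were chosen by treatment and time as labelled, from 59 arrays in the whole series, which covers 0.5 to 12 h. THP-1 is a human monocytic leukaemia line, so that every array stems from 1 cell line and not from primary macrophages. Before the ligand was added, cells of both groups had been exposed to PMA, a phorbol ester that turns them into adherent macrophage-like cells, at 10 ng/ml for 40 h, and had then rested in medium without PMA for 2 h. Both groups therefore carry the effect of PMA, and they differ only in whether 1 µM RSG or DMSO followed. Nothing in the labels says whether the replicates are separate cultures, so the p-values below measure the spread between these samples, which may be technical. Illumina bead arrays gave 1 intensity per probe, and 10134 of 16922 genes named on the array were detected on enough arrays to be tested.

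RSG is a synthetic ligand of PPARG, a nuclear receptor that pairs with RXR on DNA at direct repeats of the sequence AGGTCA. Ligand binding exchanges corepressors for coactivators at sites that the receptor already occupies, so the first transcripts to move are commonly genes with such a site nearby. In macrophages PPARG is best known for genes of fatty acid uptake, storage and oxidation, and for cholesterol efflux through the LXR receptors. Short exposures also leave room for rapid genes of the stress and growth factor response, such as FOS and the phosphatases that switch off MAP kinases.

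Levels below are normalised log2 intensities, in which a difference of 1 stands for a change of 2-fold. Measures of array quality were compared between the groups first. The mean raw signal was 545.5 ± 64.4 in RSG and 552.2 ± 46.7 in DMSO (SD, n = 5 and 6, two-sided exact permutation p = 0.840), and 12802 to 13218 probes were detected on RSG arrays, against 12691 to 13297 on DMSO arrays. No 2 arrays held identical values. The spread within the groups was, however, shared by many genes. The first principal component of the residuals held 55.0% of their variance and divided the arrays into 2 sets, RSG replicates 3, 4 and 5 with DMSO replicates 1, 2 and 3, and RSG replicates 1 and 2 with DMSO replicates 4, 5 and 6. The labels name no batch for these sets, which were found in the data. Both contain both treatments, and values within each set are given where they bear on a result. Of the lists examined, genes of the interferon response moved most between the sets, with a median 0.73 higher in the second than in the first, against 0.01 for all genes tested.

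At 1.5 h all calls pointed upwards. In limma, 14 genes were higher with RSG and 0 were lower at an adjusted p under 0.05, which is 0.138% of the 10134 genes tested. At an unadjusted p under 0.05 there were 321 genes (3.17%), of which 181 were higher and 140 lower (1.79% and 1.38% of those tested). If no gene differed, a share of 0.05 would be expected to pass that threshold, so 3.17% is no excess. Whatever their p, 5013 of the 10134 genes (49.5%) differed upwards, the share to set beside such counts of lists below. The 14 were ANGPTL4, PDK4, RND3, SOWAHC, TLR4, IRF1, PHLDA3, PLIN2, KLF4, DUSP1, FOS, DUSP2, NMUR1 and VLDLR, in order of p. Their differences ran from 0.53 for VLDLR to 2.64 for PDK4, with a median of 0.85, while the median over all genes tested was -0.00. For each of the 14, all 5 RSG arrays lay above all 6 DMSO arrays, a pattern found for 37 genes in all (0.365%), and the opposite pattern was found for 19 (0.187%). The first 10 of the 14 were called whichever single array was left out. FOS, DUSP2 and VLDLR were called in 2 of these 11 fits and NMUR1 in 3. When the spread was estimated from other times as well, 5 genes were called with 54 arrays (0.0493%), namely RND3, PDK4, TLR4, PLIN2 and KLF4, and 0 with 59. The count of 5 became 4 to 8 when 1 array of another time was left out, with 8 without RSG replicate 6 of 0.5 h, RSG replicate 2 of 3 h or DMSO replicate 4 of 3 h.

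**Figure D1:**
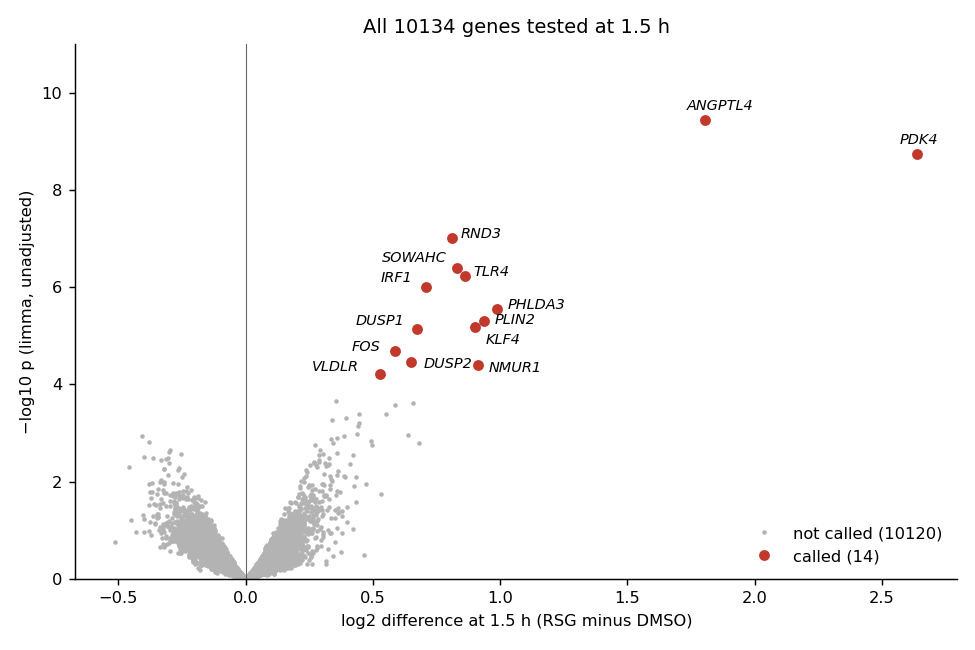
Each point is 1 of 10134 genes, with its log2 difference at 1.5 h (RSG minus DMSO) on the x axis and −log10 of the unadjusted limma p on the y axis. The 14 called genes (red) all lie right of 0, with PDK4 at 2.64 and ANGPTL4 at 1.80 away from the rest, and no gene left of 0 was called.

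The largest differences belonged to genes that steer fatty acids. PDK4, a kinase that inhibits pyruvate dehydrogenase and so spares glucose when fatty acids are burnt, was at 7.22, 7.21, 7.82, 7.83 and 8.27 on the RSG arrays and at 4.98, 5.39, 4.81, 4.75, 5.19 and 5.07 on the DMSO arrays. The lowest RSG array thus stood well above the highest DMSO array. The difference was 2.64 (SE 0.18, limma adjusted p = 9.43e-06), and since its probe was detected on 5 of 5 RSG but 2 of 6 DMSO arrays, the DMSO level is close to background. With each DMSO array counted at no less than the dimmest signal that passed detection there, PDK4 was at least 5.48-fold higher with RSG. ANGPTL4, a secreted inhibitor of lipoprotein lipase, was at 7.71, 7.64, 7.89, 8.19 and 7.74 with RSG and at 6.13, 6.10, 6.15, 6.14, 5.83 and 5.81 with DMSO. It was detected on every array and differed by 1.80 (SE 0.11, adjusted p = 3.79e-06), or 3.49-fold. In bulk RNA, a change in the share of responding cells and a change in RNA per cell cannot be told apart, here and below.

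Of the genes that handle stored and incoming lipid, PLIN2 and VLDLR were called as well. PLIN2, the protein that coats lipid droplets, was at 13.86, 13.95, 14.22, 14.38 and 14.61 with RSG, against 13.25, 13.39, 13.46, 13.14, 13.23 and 13.13 with DMSO. Its difference was 0.94 (SE 0.13, adjusted p = 0.00619), and the 2 lowest RSG arrays were those of the second set. VLDLR, a receptor that takes up triglyceride-rich lipoproteins, was at 8.38, 8.43, 8.71, 8.77 and 8.68 with RSG, against 8.11, 8.16, 8.17, 7.93, 8.09 and 7.93 with DMSO (difference 0.53, SE 0.09, adjusted p = 0.0451). The groups did not overlap, although VLDLR was the weakest of the calls. In the list of fatty acid uptake, binding and lipid droplet genes, 3 of 25 tested members were higher (PLIN2, VLDLR and ANGPTL4), 0 were lower, and the median was 0.04, against -0.00 over all genes. The called share of this list was 12.0%, against 0.138% of all genes tested. The list was chosen with earlier results of these data known, so its share is a description and no independent support. Among 30 genes of fatty acid oxidation PDK4 was the only call, and ECI2 and UCP2 came next (differences -0.26 and 0.31, adjusted p = 0.999 each). Among 12 genes of the pyruvate dehydrogenase system, PDK4 was again the only call, and PDK2, a kinase of the same family, differed by 0.12 (adjusted p = 0.999).

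**Figure D2:**
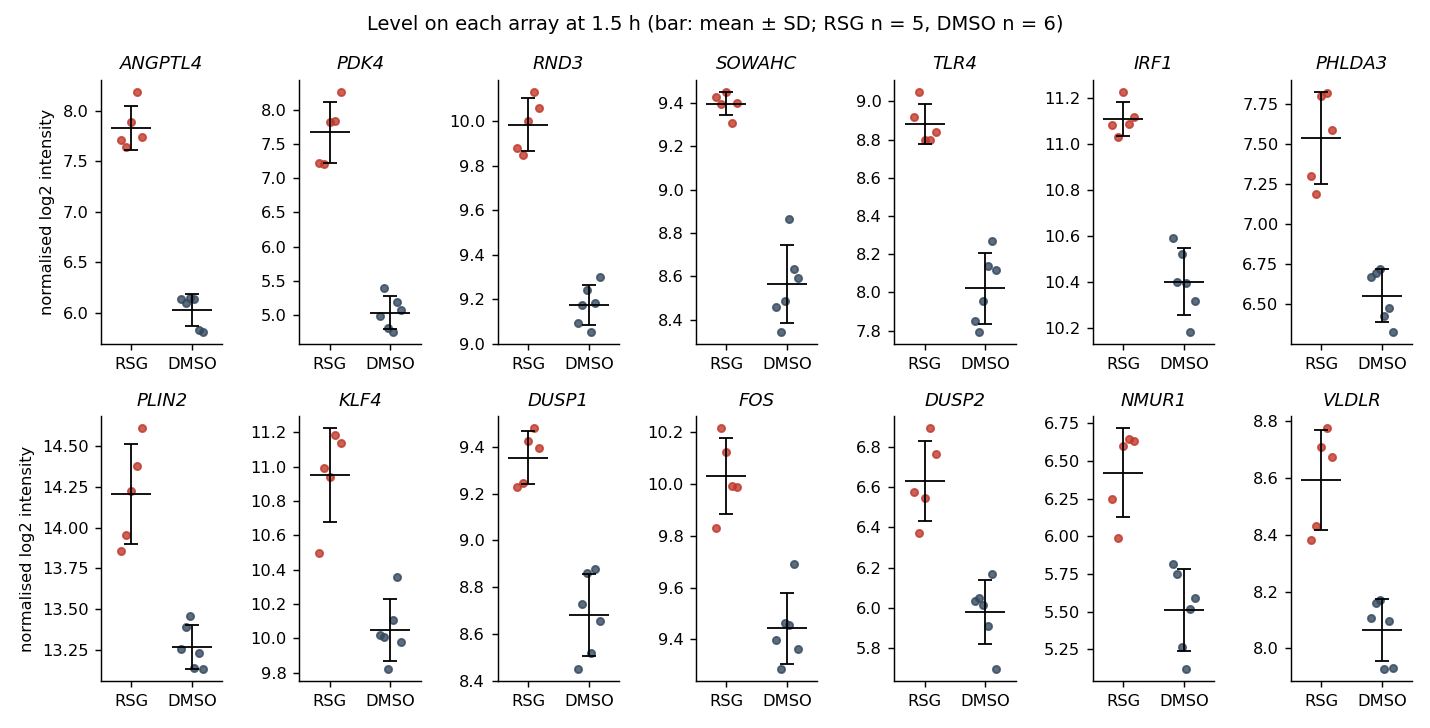
Normalised log2 intensity of the 14 called genes on each array at 1.5 h, RSG (red, n = 5) left of DMSO (dark, n = 6), with the mean and SD as black bars; each panel has its own axis, which does not start at 0. In every panel the lowest RSG array lies above the highest DMSO array, from PDK4 with a mean of 7.67 against 5.03 to VLDLR with 8.59 against 8.06.

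The receptor itself and several textbook targets did not pass the test at this time. PPARG averaged 11.47 ± 0.09 with RSG and 11.45 ± 0.09 with DMSO (SD, n = 5 and 6), a difference of 0.03 with a 95% interval of -0.13 to 0.19. Its partner RXRA differed by 0.09 (interval -0.11 to 0.28). For the probe tested of CD36, a scavenger receptor and fatty acid transporter, the means were 12.05 ± 0.13 in RSG and 12.05 ± 0.10 in DMSO. The difference of 0.00 had an interval of -0.17 to 0.18. Another CD36 probe detected on every array was at 11.52 with RSG and 11.30 with DMSO, a difference of 0.22 (limma adjusted p = 0.999 over all named probes). FABP4, an intracellular fatty acid carrier, stood at 11.70 ± 0.12 with RSG against 11.40 ± 0.20 with DMSO. That difference of 0.30 (interval 0.08 to 0.52, unadjusted p = 0.0111) had an adjusted p of 0.999, and 1 of the 5 RSG arrays lay above all DMSO arrays. NR1H3, which encodes the cholesterol sensor LXR alpha, differed by 0.06 (interval -0.33 to 0.46), and its levels, from 7.71 to 8.42 with RSG and from 7.56 to 8.35 with DMSO, overlapped almost entirely. The probe tested for ABCG1, a cholesterol exporter, differed by -0.04, whereas its other 2 detected probes differed by 0.39 and 0.42, so no direction can be given for that gene.

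Genes of cholesterol handling gave no call. Of 16 LXR target and efflux genes, 0 were called, 13 differed upwards and the median was 0.07. LPCAT3, a phospholipid remodelling enzyme, led them at 6.98 ± 0.07 with RSG against 6.54 ± 0.19 with DMSO. Its 5 RSG arrays were all above the DMSO arrays, its difference was 0.45 (SE 0.10, adjusted p = 0.217), and with a term for the array set its adjusted p was 0.0295. That term was taken from the residuals of these same arrays, so a call gained with it is no independent support. The exporter ABCA1 differed by 0.36 (adjusted p = 0.999). Of 20 genes of sterol and fatty acid synthesis, 6 differed upwards and the median was -0.03. INSIG1, which holds the transcription factor SREBP in the endoplasmic reticulum, had the smallest p of all genes that differed downwards. It was at 6.53 ± 0.23 with RSG against 6.94 ± 0.07 with DMSO (difference -0.41, SE 0.10, adjusted p = 0.438).

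A second group of calls consisted of rapid regulators. KLF4, a zinc finger transcription factor of monocyte differentiation, was at 10.50, 10.99, 10.94, 11.19 and 11.14 with RSG and at 10.02, 10.01, 9.82, 10.11, 10.36 and 9.98 with DMSO (difference 0.90, SE 0.13, adjusted p = 0.00733). RSG replicate 1 was the lowest of its group and lay close above the highest DMSO array. DUSP1, a phosphatase that inactivates p38 and JNK, was at 9.23, 9.25, 9.42, 9.48 and 9.40 with RSG, against 8.45, 8.73, 8.86, 8.52, 8.88 and 8.65 with DMSO (difference 0.67, SE 0.10, adjusted p = 0.00733). DUSP2, a nuclear phosphatase of the same family, differed by 0.65 (SE 0.11, adjusted p = 0.0295), from 6.37 to 6.89 with RSG against 5.70 to 6.17 with DMSO. FOS, a subunit of the AP-1 transcription factor, was at 9.83, 10.21, 10.12, 9.99 and 9.99 with RSG and at 9.40, 9.29, 9.46, 9.45, 9.69 and 9.36 with DMSO (difference 0.59, SE 0.09, adjusted p = 0.0192). For these 4 genes the 2 groups did not overlap.

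Other members of the same families stayed below the threshold. FOS was the only call among 28 immediate early genes, and the next by p were MYC with 0.45 (adjusted p = 0.288) and JUN with 0.39 (adjusted p = 0.438). Of 23 genes of MAP kinase feedback, DUSP1 and DUSP2 were higher and 0 were lower (8.70% called, against 0.138% of all genes tested). That list, too, was chosen with earlier results of these data known, so its share is only a description. At an unadjusted p under 0.05, 4 members of this list were higher and 4 lower. TRIB1, a pseudokinase that directs the breakdown of C/EBP proteins, was at 10.23 ± 0.16 with RSG and 10.55 ± 0.15 with DMSO, with all 5 RSG arrays below the DMSO arrays (difference -0.32, adjusted p = 0.836). KLF4 was the only call of 13 Kruppel-like factors, ahead of KLF11 (0.34, adjusted p = 0.505) and KLF10 (0.34, adjusted p = 0.999). The C/EBP factor CEBPB, of 23 myeloid lineage factors none of which was called, differed by 0.34 (SE 0.08, adjusted p = 0.267), and its RSG arrays all lay above the DMSO arrays.

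TLR4 and IRF1 were called among genes of innate immunity. TLR4, the receptor for bacterial endotoxin, was at 8.92, 9.05, 8.80, 8.80 and 8.84 with RSG, against 7.85, 7.79, 7.96, 8.14, 8.27 and 8.12 with DMSO (difference 0.86, SE 0.10, adjusted p = 0.00122). RSG and DMSO differed by 0.95 within the first set of arrays and by 0.81 within the second. It was the only call of 20 Toll-like receptors and adaptors, where the median was -0.00, and the signalling kinase IRAK2 came next with 0.32 (adjusted p = 0.783). IRF1, a transcription factor of the interferon response, was at 11.08, 11.03, 11.23, 11.09 and 11.12 with RSG and at 10.59, 10.40, 10.52, 10.39, 10.18 and 10.32 with DMSO (difference 0.71, SE 0.08, adjusted p = 0.00171). Of 26 genes of the NF-kB pathway and inflammatory cytokines, 8 chemokines and 16 chemokine and lipid receptors, 0 were called in either direction. In the last of these lists 3 members had an unadjusted p under 0.05, all lower, with differences of -0.33 for PTGER2, a prostaglandin E receptor, -0.17 for CCR1 and -0.30 for CX3CR1.

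The interferon list differed between the array sets, and the part of the sets in its values was not tested beyond the fits given here. IRF1 was its only call of 30 members. Of the 30, 26 differed upwards, against 49.5% of all genes tested, and the median difference was 0.16, against -0.00 over all genes. The mean level of the list ran from 8.09 to 8.88 over RSG arrays and from 7.86 to 8.59 over DMSO arrays, so the groups overlapped. With a term for the set, 5 members were called, IRF1 with MX1, IFI44L, OASL and TRIM22, and the list's median was 0.23. MX1, an interferon-induced GTPase that blocks viral replication, differed by 0.72 within the first set and by 0.51 within the second, but by 0.46 over the 11 arrays (adjusted p = 0.999), where its SD was 0.83 with RSG and 0.94 with DMSO. MX1, IFI44L, OASL and TRIM22 were picked after their values had been seen. IFI44L and TRIM22 were also close to background. The IFI44L probe rose above it on 2 of the 5 RSG arrays and the TRIM22 probe on 4. Each of these probes did so on 3 of the 6 DMSO arrays.

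RND3, SOWAHC, PHLDA3 and NMUR1 belong to no single pathway. RND3, a small GTP-binding protein that acts on the actin cytoskeleton, was at 9.88, 9.85, 10.00, 10.13 and 10.06 with RSG, against 9.09, 9.17, 9.24, 9.05, 9.19 and 9.30 with DMSO (difference 0.81, SE 0.08, adjusted p = 3.36e-04). Its spread within groups was small, and it kept its call with 54 arrays. SOWAHC, a protein with ankyrin repeats, was at 9.43, 9.39, 9.45, 9.31 and 9.40 with RSG and at 8.46, 8.34, 8.49, 8.86, 8.63 and 8.59 with DMSO (difference 0.83, SE 0.09, adjusted p = 0.00101). PHLDA3, a target of p53 that restrains AKT signalling, was at 7.30, 7.19, 7.80, 7.82 and 7.59 with RSG, against 6.67, 6.69, 6.72, 6.43, 6.48 and 6.33 with DMSO (difference 0.99, SE 0.13, adjusted p = 0.00410). It was the only call of 17 p53 targets, whose median was 0.01. NMUR1, a receptor for the neuropeptide neuromedin U, was at 6.25, 5.99, 6.60, 6.65 and 6.63 with RSG and at 5.82, 5.75, 5.27, 5.12, 5.52 and 5.59 with DMSO (difference 0.91, SE 0.15, adjusted p = 0.0313), and 1 DMSO array lacked detection of its probe. POU3F1, a POU domain transcription factor, did not pass the detection filter, since its probe rose above background on 4 of 5 RSG arrays and on 0 of 6 DMSO arrays. In the fit without that filter its adjusted p was 0.178. With each DMSO array counted at no less than the dimmest signal that passed detection there, the RSG mean was 1.12-fold higher. Not every RSG array was itself above background. The levels overlapped slightly, from 4.91 to 5.53 with RSG and from 4.61 to 4.91 with DMSO, so no least difference can be given.

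No gene was called lower, and the 12 of smallest p among those that differed downwards had differences from -0.46 to -0.25. Besides INSIG1 these were AFG1L, PPP1R3C, CYP1B1, DNAJC21, SGK1, HS3ST1, BMP4, GLMN, PTGER2, CEP57L1 and F3. SGK1, a kinase induced by glucocorticoids, was at 10.27 ± 0.25 with RSG and 10.67 ± 0.12 with DMSO (difference -0.40, adjusted p = 0.717). CYP1B1, an oxidase of the aryl hydrocarbon response, was at 11.06 ± 0.13 with RSG and 11.36 ± 0.09 with DMSO, and its 5 RSG arrays all lay below the DMSO arrays (difference -0.30, adjusted p = 0.657). F3, which encodes tissue factor, had the largest of these differences (-0.46, adjusted p = 0.812), with 3 of 5 RSG arrays below all DMSO arrays.

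The calls were then set beside PPARG binding, which the study had mapped in THP-1 cells by chromatin immunoprecipitation. That mapping used cells treated with RSG for 1.5 h, after PMA at another dose and duration than here. For each PPARG/RXR site it lists the nearest gene, where the site lies within 100 kb of the gene's start. A gene with a site within 100 kb but another gene closer to that site can thus be missing from the list. Of 1264 such genes on the array 963 were tested. FOS, PHLDA3, SOWAHC, PLIN2, ANGPTL4, PDK4, NMUR1, RND3 and TLR4 were called, which is 9 of 963 (0.935%) against 0.138% of all genes tested, and 0 were lower. At an unadjusted p under 0.05, 60 of the 963 were higher and 11 lower, against 1.79% and 1.38% of all genes tested. Of the 963, 597 differed upwards, against 49.5% of all genes tested, with a median of 0.03. The remaining 5 calls, IRF1, KLF4, DUSP1, DUSP2 and VLDLR, were among the 9171 genes without a listed site (0.0545%). In that group 121 genes were higher and 129 lower at an unadjusted p under 0.05.

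Genes whose site is also bound at the matching place in mouse macrophages had the highest median of these lists. Of 59 such genes tested, 3 were called (PLIN2, ANGPTL4 and NMUR1, 5.08%, against 0.138% of all genes tested). At an unadjusted p under 0.05, 14 were higher and 0 lower, against 1.79% and 1.38% of all genes tested. Of the 59, 45 differed upwards, against 49.5% of all genes tested, and the median was 0.06. Their mean level, in which the 3 called genes are included, ran from 9.04 to 9.13 over the RSG arrays and from 8.87 to 8.96 over the DMSO arrays. The groups thus did not overlap. Of 139 genes bound at a different place in mouse, 4 were called (SOWAHC, FOS, RND3 and TLR4, 2.88%, against 0.138% of all genes tested) and the median was 0.05. These shares are descriptions of lists that overlap and are unequal in size, and no list was tested against another.

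**Figure D3:**
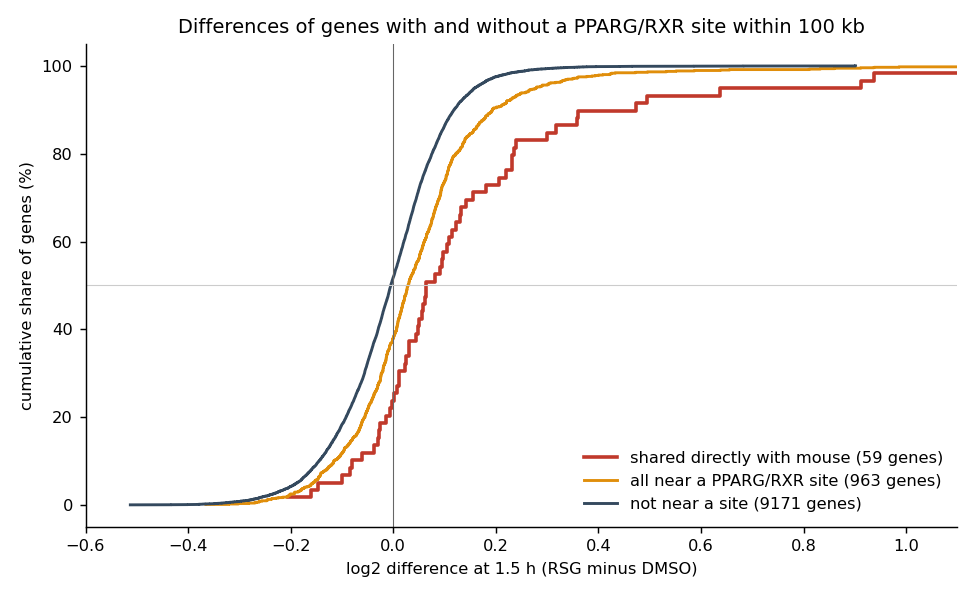
Cumulative share of genes (y axis, %) against the log2 difference at 1.5 h (x axis, RSG minus DMSO) for 59 genes whose PPARG/RXR site is shared directly with mouse (red), all 963 genes listed as nearest to a site (orange) and 9171 genes not listed (dark). A gene not listed may still have a site within 100 kb. The medians are 0.06, 0.03 and -0.00, and the axis ends before the 2 largest differences, those of ANGPTL4 (1.80) and PDK4 (2.64).

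The promoters of the called genes were examined for short sequences known from the control of such genes. RefSeq promoters (GRCh38.p14), 250 bases before to 50 after each start, were at hand for 12 of the 14 genes, not for NMUR1 and PHLDA3. Both strands were searched, and matches may overlap. The PPARG repeat AGGTCANAGGTCA was in 0 of the 12 and in 0.0228% of all 35116 promoters. For so rare a sequence a 0 among 12 was all but fixed in advance, so it says nothing about PPARG elements at these genes. A single AGGTCA was in 1, DUSP2, against 13.8% of all. TGACG, the core of the cyclic AMP response element, was in 5 of 12 (PDK4, IRF1, KLF4, DUSP1 and FOS) against 24.6% of all, and the full element TGACGTCA was in DUSP1 alone, against 1.85% of all. The sequence TATAAA, on either strand, was in 5 of 12 (ANGPTL4, RND3, PLIN2, DUSP1 and FOS) against 11.5% of all. For ANGPTL4, DUSP1 and FOS it began 29, 30 and 33 bases before the start, along the gene. RND3 held it along the gene at 30 and at 2 bases before the start, whereas the match of PLIN2 lay on the reverse strand. A match is a description and not a bound site. Below are the promoters of PDK4 and ANGPTL4, which had the largest differences, and of DUSP1 and FOS, which alone of the 12 hold both TGACG and TATAAA, 5′ to 3′ along the gene, with TGACG (or its reverse complement CGTCA) and TATAAA in capitals.
PDK4, chr7:95596467-95596766, minus strand: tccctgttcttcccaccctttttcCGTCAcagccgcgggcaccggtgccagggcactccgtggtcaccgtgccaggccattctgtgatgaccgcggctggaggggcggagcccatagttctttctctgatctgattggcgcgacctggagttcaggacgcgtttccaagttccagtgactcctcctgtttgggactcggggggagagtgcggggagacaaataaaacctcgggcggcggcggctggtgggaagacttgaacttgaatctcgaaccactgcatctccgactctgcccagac
ANGPTL4, chr19:8363905-8364204, plus strand: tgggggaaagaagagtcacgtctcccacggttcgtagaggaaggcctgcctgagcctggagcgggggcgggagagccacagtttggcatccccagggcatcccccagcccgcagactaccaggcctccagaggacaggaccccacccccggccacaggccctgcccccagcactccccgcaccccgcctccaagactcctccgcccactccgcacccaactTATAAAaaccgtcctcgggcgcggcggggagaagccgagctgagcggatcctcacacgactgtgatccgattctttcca
DUSP1, chr5:172771146-172771445, minus strand: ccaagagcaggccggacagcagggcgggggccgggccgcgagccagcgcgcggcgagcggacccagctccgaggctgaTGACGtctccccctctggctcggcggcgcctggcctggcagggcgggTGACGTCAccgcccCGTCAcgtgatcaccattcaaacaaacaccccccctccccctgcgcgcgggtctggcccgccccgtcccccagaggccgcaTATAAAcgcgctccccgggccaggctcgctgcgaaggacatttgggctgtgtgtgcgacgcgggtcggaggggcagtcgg
FOS, chr14:75278578-75278877, plus strand: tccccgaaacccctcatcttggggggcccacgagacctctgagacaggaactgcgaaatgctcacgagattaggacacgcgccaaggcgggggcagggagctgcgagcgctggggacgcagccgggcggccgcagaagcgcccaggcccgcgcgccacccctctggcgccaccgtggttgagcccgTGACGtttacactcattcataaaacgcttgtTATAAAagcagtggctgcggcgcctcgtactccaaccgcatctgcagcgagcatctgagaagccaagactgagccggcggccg
PDK4 holds 1 distal TGACG match on its reverse strand and no TATAAA, ANGPTL4 holds TATAAA alone, and DUSP1 holds both motifs, with TGACG in 4 places of which 2 form the palindrome.

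The differences of the 14 genes varied in size between the array sets, while their sign was fixed there, since the groups do not overlap. In the first set (3 RSG and 3 DMSO arrays) the 14 differences ran from 0.57 for VLDLR to 2.91 for PDK4, and in the second (2 RSG and 3 DMSO arrays) from 0.42 for VLDLR to 2.21 for PDK4. ANGPTL4 differed by 1.81 and 1.75, KLF4 by 1.14 and 0.60, and IRF1 by 0.64 and 0.76, in the first and second set. With a term for the set, 30 genes were called, all higher with RSG (0.296%), including the 14. Since the sets were found in the residuals of these arrays, the 16 gained calls are given as a description. Among them, LFNG, a glycosyltransferase that modifies Notch, was at 10.32 ± 0.28 with RSG against 9.64 ± 0.36 with DMSO and differed by 0.56 and 0.70 in the 2 sets (adjusted p = 3.27e-04 with the term, 0.502 without). MAP3K8, a kinase upstream of ERK in Toll-like receptor signalling, differed by 0.62 and 0.42 (adjusted p = 0.00792 with the term, 0.522 without). The rest were LPCAT3, MX1, IFI44L, OASL, TRIM22, HIC2, LRATD2, SLC1A7, CDC42EP4, BCAR3, ADAMTS1, LRP5L, PHLDA1 and TRAF3IP2. Apart from LPCAT3 and MAP3K8, these 16 were picked from this result.

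**Figure D4:**
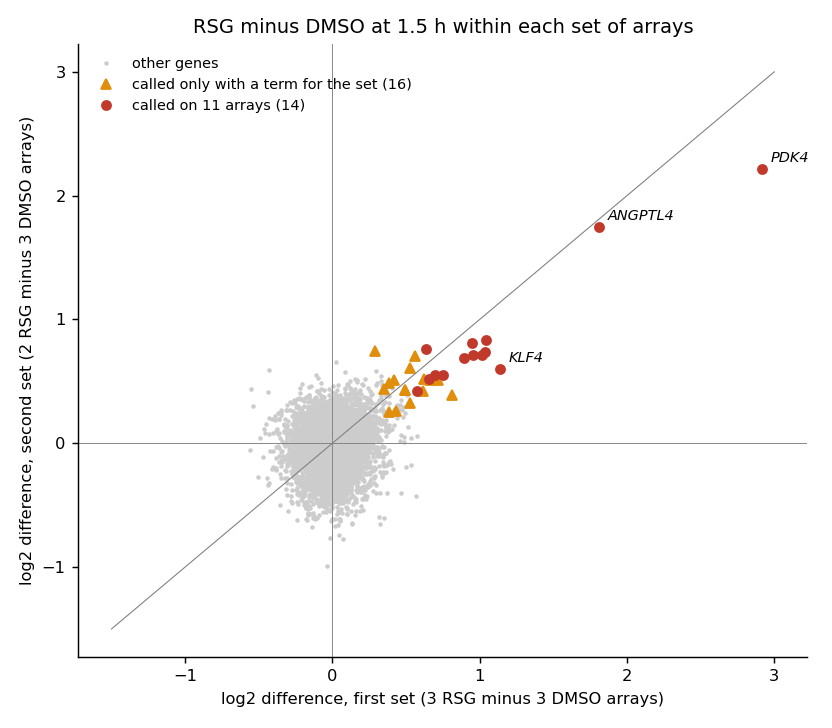
Each point is a gene, with its log2 difference at 1.5 h (RSG minus DMSO) in the first set of arrays on the x axis and in the second on the y axis; the diagonal marks equal differences. The 14 genes called on 11 arrays (red) and the 16 called only with a term for the set (orange) are above 0 on both axes. For the 14 this follows from groups that do not overlap. The 16 were picked by a difference that combines those of both axes, so their place is no separate support. PDK4 (2.91 and 2.21) and KLF4 (1.14 and 0.60) are further right than up.

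The 14 genes were followed at the other times, each against its own DMSO arrays. At 8 and 12 h 5 arrays had a median correlation under 0.95 with the other arrays, so values here are from the 54 others. At 0.5 h 0 of the 14 were called and all 14 differed upwards, with a median of 0.22, against 0.85 at 1.5 h. At 3 h again 0 were called and 14 differed upwards, with a median of 0.70. Of all genes tested, 51.8% differed upwards at 0.5 h and 52.2% at 3 h. At 8 h 10 were called higher, against 0.868% of all genes, and at 12 h 11, against 1.21%, with medians of 1.11 and 1.18. DUSP1, DUSP2 and FOS were not called at either time, and IRF1 not at 8 h. With all 59 arrays the counts were 1 at 8 h (0.0987%) and 0 at 12 h (0.0197%). PDK4 differed by 0.61, 2.64, 1.71, 3.42 and 3.53 from 0.5 to 12 h.

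At 0.5 h 1 array decided several of these values. RSG replicate 6 of 0.5 h was at 7.50 for PDK4, 8.83 for ANGPTL4 and 14.31 for PLIN2, while the next RSG array was at 5.49, 6.76 and 13.55. It was also the lowest of its group for DUSP1, at 8.46 against 10.48 or more, and for FOS. Without it the differences at 0.5 h were 0.22 for PDK4 (0.61 with it), 0.14 for ANGPTL4 (0.58), 0.12 for PLIN2 (0.27) and 0.47 for DUSP1 (0.10), and again 0 of the 14 were called.

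The 3 h groups were wide for the lipid genes. PDK4 ran from 4.95 to 8.45 (median 7.90) over the 6 RSG arrays of 3 h, of which the second lowest was at 7.62, and from 4.72 to 8.21 (median 5.14) over the 6 DMSO arrays, of which the second highest was at 6.88. RSG replicate 2 thus held a DMSO-like level, DMSO replicate 4 an RSG-like one, and DMSO replicate 1 one in between. ANGPTL4 was at 5.72 on that RSG array (median 7.79) and at 8.15 and 7.96 on those 2 DMSO arrays (median 6.31). PLIN2 was at 13.14 on the RSG array (median 14.48) and at 14.54 and 13.77 on the DMSO arrays (median 13.15). Without RSG replicate 2, 8 of the 14 were called higher at 3 h (0.118% of all genes were called), and without DMSO replicate 4, 9 were (0.158%), against 0 with both. PDK4 then differed by 2.22 and 2.19. These arrays were kept under their labels.

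The levels of DUSP1 and FOS in the control cells were higher at 0.5 h than at 1.5 h. DUSP1 in DMSO averaged 10.20 ± 0.40 at 0.5 h, 8.68 ± 0.17 at 1.5 h and 7.97 ± 0.39 at 3 h (SD, n = 6 each). The DMSO level at 0.5 h was 1.52 above that at 1.5 h (SE 0.23, limma adjusted p = 1.20e-04), and that at 3 h was 0.71 below it on the log2 scale (DMSO 3 h minus 1.5 h of -0.71, adjusted p = 0.0207). RSG against DMSO, DUSP1 differed by 0.10, 0.67, 0.57, 0.53 and 0.46 from 0.5 to 12 h. FOS in DMSO was 0.68 higher at 0.5 h than at 1.5 h (adjusted p = 0.0137), whereas the same difference was 0.10 for KLF4 (adjusted p = 0.779) and 0.13 for DUSP2 (adjusted p = 0.712). IRF1 differed by 0.31 at 0.5 h, 0.71 at 1.5 h, 0.15 at 3 h, 0.22 at 8 h and 0.72 at 12 h, and of these it was called in the 54 arrays at 12 h (adjusted p = 0.0313). VLDLR, at 0.53 at 1.5 h, differed by 1.34 at 8 h and 1.32 at 12 h, where its DMSO level was 1.19 and 1.11 below that of 1.5 h (differences -1.19 and -1.11).

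The difference between times was tested directly, as the RSG effect at each time minus that at 1.5 h. With 59 arrays 0 genes passed at any time, and 40, 58, 122 and 97 had an unadjusted p under 0.05 at 0.5, 3, 8 and 12 h. Each of these counts is a smaller share than the 0.05 expected if no gene differed. With 54 arrays 0 passed at 0.5 and 3 h, 9 at 8 h (8 with a larger effect than at 1.5 h and 1 with a smaller one) and 19 at 12 h (13 larger and 6 smaller), and none of these was 1 of the 14. FABP4 had a larger effect at 8 h by 1.25 (SE 0.25, adjusted p = 0.0192) and at 12 h by 1.99 (SE 0.28, adjusted p = 3.03e-05), and CD36 by 1.05 and 1.15. Part of this lay in the controls. DMSO at 8 and 12 h minus DMSO at 1.5 h was -0.68 and -1.30 for FABP4, and -0.32 and -0.18 for CD36. With RSG the FABP4 median was 11.67 at 1.5 h, 12.31 at 8 h and 12.32 at 12 h. These tests share the 1.5 h arrays.

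**Figure D5:**
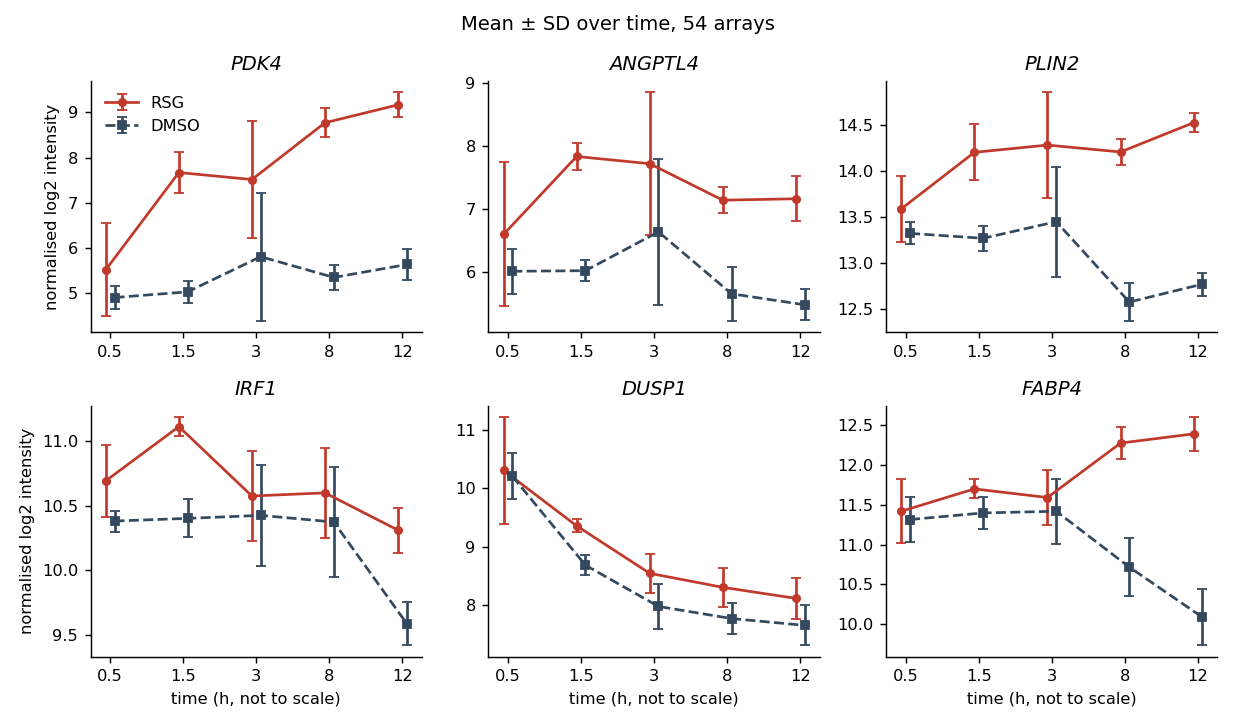
Normalised log2 intensity over time (x axis in h, not to scale) of 6 genes with RSG (red, solid) and DMSO (dark, dashed), as mean and SD over the 54 arrays (4 to 6 per point). PDK4 and PLIN2 with RSG were above DMSO at 1.5, 8 and 12 h with wide bars at 3 h, DUSP1 was lower at each later time in both groups, and FABP4 separated at 8 and 12 h.

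The labelled cell type was checked against its markers. Of 12 monocyte and macrophage markers 11 passed the detection filter, with mean levels of 11.48 to 11.64 on RSG arrays and 11.47 to 11.58 on DMSO arrays, and 0 were called. Of the lists for other cells, 7 of 12 mature dendritic cell markers were tested and none was called, and 2 T or NK cell, 2 B cell and 1 fibroblast or epithelial marker passed the detection filter. On RSG arrays the dendritic cell markers averaged 8.01 to 8.23 and the T or NK cell markers, NKG7 and GNLY, 8.82 to 9.18. The B cell markers averaged 6.39 to 6.61 there and the fibroblast or epithelial marker was at 4.90 to 5.40, against 8.20 to 8.21 over all genes tested. Of 7 adipocyte markers on the array 5 were tested and 0 called, and 1 of them, FABP4, was higher at an unadjusted p under 0.05. Of 22 macrophage differentiation genes, 11 scavenger receptors, 31 cell cycle genes, 26 genes of oxidative phosphorylation and 24 ribosomal proteins, 0 were called, and the medians of these lists lay between -0.03 and 0.01.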

How the data were processed

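RNA of THP-1 cells was hybridised to Illumina bead arrays, and treatment and time in the labels gave the groups. In 1 deposited table each probe has, per the file headers, a mean intensity over its beads, with no background subtraction or scaling by the authors, together with a detection p-value. A second deposited table gives intensity after the authors had subtracted a background and scaled the arrays to a common mean (BeadStudio, average normalization). The chip was an Illumina BeadChip-8 of version 2 per the study's methods, and binding sites had been mapped to genes on hg18. A build for the array probes is not given in the sources used here. The raw intensities of 59 arrays were background-corrected by the normal-exponential model with the detection p-values and an offset of 16, then quantile-normalized as log2 values (neqc, limma 3.58.1, R 4.3.3). Of 24531 probes, 5 without a counterpart in the second table were left out, and 13206 detected at p under 0.01 on at least 5 of the 11 arrays of 1.5 h were kept. The platform annotation gave 1 symbol for 21834 probes, several for 0 and none for 2692. Each gene was represented by its named probe of highest mean signal, which left 10134 genes.

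RSG was compared with DMSO at 1.5 h by limma's moderated test on 11 arrays, two-sided, at a threshold of 0.05 after Benjamini-Hochberg adjustment over all 10134 genes. Other times and their difference from 1.5 h were fitted with a mean for each of 10 groups, on 59 arrays and on the 54 that had a median correlation of 0.95 or more with the others. The scripts were tested on simulated data. Array measures were compared by an exact permutation test over 462 splits, whose smallest p is 0.00216. The number of arrays limits the precision. Lists are described by counts and medians and were not tested. The members and lists were chosen with earlier results of these data known. Genes were named by a rule, namely PPARG, RXRA, PDK4, ANGPTL4, PLIN2, NR1H3, ABCG1, FABP4, CD36, KLF4, TLR4 and POU3F1, the 12 of smallest p in each direction, and from each list every called member and up to 3 of smallest p. Genes outside it are marked as chosen after their values were seen. Samples were not paired by replicate number. Alternatives tried were normalization of the 11 arrays alone, the authors' scaled table, average normalization, no background correction, other detection filters, the mean of a gene's probes, a replicate block, array weights, a trended and robust prior, a linear model without moderation, each array left out and, chosen after seeing the data, the 2 sets of arrays and each array of another time left out.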

Additional observations from a re-analysis of the deposited data

Results flagged for a closer look

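Of 158 groups of arrays examined, 4 had 1 array beyond Dixon's 95% critical value, which chance passes in about 1 in 20 groups. RDH10, a retinol dehydrogenase, was at 8.88 on RSG replicate 5 and at 8.55 to 8.59 on the other 4 RSG arrays. The chemokine CCL20 was at 8.46 on RSG replicate 2 and at 8.79 to 8.88 on the others. PDK2 was at 5.72 on RSG replicate 3, against 6.07 to 6.21, and TPD52L1 at 6.48 on RSG replicate 1, against 6.11 to 6.21.

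In the 54 arrays the RSG effect differed from that of 1.5 h, by limma's test of the difference, for 9 genes at 8 h (8 larger, 1 smaller) and 19 at 12 h (13 larger, 6 smaller), and none of these passed with 59. The gene with a smaller effect at 8 h was PFKP, a phosphofructokinase (-0.58, and -0.66 at 12 h). At 8 h the effect was larger by 1.05 for CD36, 1.25 for FABP4, 0.96 for the kinase FGR, 0.70 for the proteoglycan GPC4, 0.81 for PDGFRL, 1.03 for RCAN1, an inhibitor of calcineurin, and 1.37 for TPD52L1. At 12 h it was larger by 1.15 for CD36, 1.99 for FABP4, 1.15 for FFAR2, a receptor for short-chain fatty acids, 0.96 for FGR, 0.83 for GPC4, 1.09 for PDGFRL, 1.23 for RCAN1 and 1.47 for TPD52L1. The control levels moved as well. DMSO at 8 and 12 h minus DMSO at 1.5 h was -2.25 and -2.56 for FGR and -1.21 and -1.28 for RCAN1. It was -0.66 and -0.87 for GPC4, -0.68 and -1.30 for FABP4, -0.32 and -0.18 for CD36, and -0.32 and -0.17 for FFAR2. For PDGFRL it was 0.71 and 0.98, and for TPD52L1 0.09 and 0.16. At 1.5 h the effects of the genes named here, on the probes tested, lay between 0.00 for CD36 and 0.30 for FABP4. Other probes detected on every array of 1.5 h differed by 0.22 for CD36, 0.54 for RCAN1, 0.24 for FGR and 0.16 for TPD52L1. PFKP, FGR, GPC4, PDGFRL, RCAN1, FFAR2 and TPD52L1 were picked with these values known.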

How the results depend on the processing

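With 14 genes called on 11 arrays, all higher with RSG, the count was 14 with normalization of the 11 arrays alone, with the mean of a gene's probes and with a trended and robust prior, 13 without background correction, 12 without a detection filter or with detection on all 11 arrays, 10 with the authors' scaled table or average normalization, 21 with array weights and 13 with the first set of arrays alone. No setting called a gene lower. The count moved to 0 with 59 arrays and 5 with 54, where other times set the spread, and to 6 in a linear model without moderation. It moved to 30 with a term for the array set, and to 2 with the second set alone, which has 2 RSG and 3 DMSO arrays. Each single array left out gave 10 to 14. RSG and DMSO arrays of the same replicate number did not deviate together, with residual correlations of -0.51, -0.63, 0.62, -0.50 and -0.41 for numbers 1 to 5, and 1 of 5 RSG arrays was most like the DMSO array of its own number; with the replicate block 2 genes were called. The tests against 1.5 h gave 0 genes at every time with 59 arrays, and 9 at 8 h and 19 at 12 h with 54. Signs turned for genes that were not called. ABCG1 (-0.04) was at 0.26 with the mean of its probes, 0.016 with the replicate block, 0.013 with the set term, 0.064 in the second set and between -0.12 and 0.083 without single arrays. NR1H3 was at -0.091 with array weights and between -0.041 and 0.15 without single arrays, CD36 at -0.14 in the second set and between -0.030 and 0.047, PPARG between -0.011 and 0.050, and TPD52L1 at -0.041 in the second set. For the turned signs and the moved counts the cause was not tested. Signal over background limits PDK4 and POU3F1, whose probes were detected on 2 and 0 of 6 DMSO arrays. It also limits IFI44L and TRIM22, whose probes each passed detection on 3 of 6 DMSO arrays. With RSG the IFI44L probe passed on only 2 of the 5 arrays, and the TRIM22 probe on 4. AFG1L and CEP57L1 are limited as well, detected on 1 and 2 of 5 RSG arrays.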
